A study of Mus musculus with 8 samples.

Results

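The Runx genes encode 3 transcription factors, *Runx1*, *Runx2* and *Runx3*, and *Cbfb* encodes core binding factor beta, their common partner. These 4 genes were taken from 22181 genes measured in O9-1 cells, an immortalized line derived from the cranial neural crest of the mouse. The line stands in for the mesenchyme of the embryonic face in culture, without the ectoderm that supplies Sonic hedgehog ligand (SHH) there. RNA of 4 SHH-treated and 4 vehicle-treated cultures, called biological replicates 1 to 4 of each treatment in the labels, was hybridised to 8 Affymetrix Mouse Gene 2.0 ST arrays. After 24 h of attachment all cultures were given DMEM with 1% fetal bovine serum, which held 0.4 μg/mL of the SHH-N peptide in the SHH-treated cultures and none in the vehicle-treated ones, until RNA was taken at 48 h. Each gene was represented by 1 transcript cluster, a set of probes that the array reads together and that can cover several transcripts of a gene. The array annotation named the clusters of 3 of the 4 genes. The cluster of *Runx2* carried no symbol there and was named from a supplementary table of the study for the same array design.

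Runx proteins bind DNA through the Runt domain, a fold they share with the Runt protein of the fruit fly. Core binding factor beta does not contact DNA itself: it holds the Runt domain in the shape that binds and protects the Runx protein from degradation, so each Runx protein works as a heterodimer with the same partner. In the mouse, *Runx1* is required for blood stem cells to form, *Runx2* for osteoblasts to form and for cartilage cells to enlarge, and *Runx3* for proprioceptive sensory neurons and cytotoxic T cells. In the face and skull, bone forms largely from neural crest mesenchyme under the control of *Runx2*, and losing a copy of that gene causes cleidocranial dysplasia in humans.

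A promoter of each Runx gene carries the binding letters of Runx proteins, and these are shown first because the 3 genes share them. The letters searched were TGTGGT on either strand (ACCACA where read in reverse), a spelling of the core of the site that Runx proteins bind. Other spellings of the core were not searched, so a window with 0 matches may still hold a site. The reference gave 2 promoter windows each for *Runx1* and *Runx3*, named distal and proximal here. A single window was given for *Runx2* and for *Cbfb*, so any other promoter of these genes was not searched. In windows of 300 bases, from 250 before to 50 after a transcription start (RefSeq, GRCm38.p6), the distal *Runx1* window held 2 matches, the *Runx2* window 3, the distal *Runx3* window 2, and the proximal windows of *Runx1* and *Runx3* and the window of *Cbfb* 0. Of all 32851 windows, 16.76% held at least 1 match and 1.811% at least 2. The stretches below are 30 bases long, 5′ to 3′ in the direction of the gene, with the matches in capitals. The first lies at chr16:92826025-92826054 (minus strand), 21 to 50 bases after the distal *Runx1* start. The second lies at chr17:44814583-44814612 (minus strand), 16 to 45 bases after the *Runx2* start. The third lies at chr4:135120503-135120532 (plus strand), bases -142 to -113 relative to the distal *Runx3* start.
Runx1: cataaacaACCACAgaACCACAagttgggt
Runx2: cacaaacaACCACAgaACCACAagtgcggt
Runx3: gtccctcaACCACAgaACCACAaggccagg
The run of letters common to these stretches is 18 bases long and holds both matches. It occurred in 4 of the 32851 windows (0.01218%), those of *Runx1*, *Runx2* and *Runx3* and that of *Gm16225*, a neighbour of *Runx3* whose window on the other strand overlaps the distal *Runx3* window. The letters of a Gli binding site, TGGGTGGTC on either strand, which do not contain the Runx letters, were in 0.2527% of all windows and in 0 of the 6 windows of these genes. With letters this rare, 0 of 6 was likely for any genes, so nothing can be read from it. A match is a description of letters. Binding was not measured, and the array value of a gene does not separate transcripts of a distal and a proximal promoter.

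All 4 genes changed with SHH, 1 downward and 3 upward. *Runx1* was 2.86-fold lower in SHH-treated cells, while *Cbfb* was 2.26-fold, *Runx2* 2.03-fold and *Runx3* 1.59-fold higher. Values are log2 signals, on which a difference of 1 is a doubling, and a gene was called at an adjusted p under 0.01 (limma, Benjamini-Hochberg over 41345 transcript clusters). The call was made for 4 of the 4 genes. Over all clusters 6.48% were called, and over all genes 9.99%, of which 4.79% of genes were higher and 5.19% lower in SHH-treated cells. For each of the 4 genes the SHH-treated and vehicle-treated values were separate, as they were for 25.1% of all genes. The signal of each gene lay above 5.76, the highest median of an array, in every culture.

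*Runx1*, known above all as a regulator of blood formation and as a gene broken in leukaemia, had log2 signals of 8.52, 8.52, 8.50 and 8.78 in SHH-treated cultures and of 10.06, 10.16, 10.06 and 10.12 in vehicle-treated cultures. Even the highest SHH-treated culture, replicate 4, lay 1.27 below the lowest vehicle-treated one. The means were 8.58 ± 0.13 with SHH and 10.10 ± 0.05 with vehicle (SD, n = 4 each). The log2 fold change was -1.52 (SE 0.08, limma adjusted p = 6.04e-06), and 75 genes had a larger fall. Fewer cells that express a gene and less of its RNA in each cell cannot be told apart in these bulk samples, here and for the other genes.

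*Runx2*, the master regulator of the osteoblast, gave log2 signals of 10.72, 10.81, 10.71 and 10.77 in SHH-treated cultures, against 9.66, 9.83, 9.81 and 9.63 in vehicle-treated cultures. Every SHH-treated culture was higher than every vehicle-treated one, by at least 0.88. Its mean was 10.75 ± 0.05 with SHH and 9.73 ± 0.10 with vehicle (SD, n = 4 each). This was a log2 fold change of 1.02 (SE 0.07, limma adjusted p = 2.72e-05), and 302 genes had a larger rise.

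*Runx3*, which acts in sensory neurons and T cells and is often silenced in gastric cancer, gave log2 signals of 7.64, 7.76, 7.52 and 7.84 in SHH-treated cultures, against 6.80, 7.10, 7.12 and 7.07 in vehicle-treated cultures. The gap between the treatments was 0.41, the smallest of the 4 genes. Its mean was 7.69 ± 0.14 with SHH and 7.02 ± 0.15 with vehicle (SD, n = 4 each), and the log2 fold change was 0.67 (SE 0.10, limma adjusted p = 0.00256). Without SHH replicate 2 the log2 fold change was 0.65 and the call was lost (limma adjusted p = 0.0110). There were 591 genes with a larger rise.

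*Cbfb* showed the tightest values of the 4 genes in SHH-treated cultures, with log2 signals of 11.07, 11.03, 11.04 and 11.03, against 9.91, 9.93, 9.75 and 9.87 in vehicle-treated cultures. The lowest SHH-treated culture was 1.09 above the highest vehicle-treated one. Its mean was 11.04 ± 0.02 with SHH and 9.87 ± 0.08 with vehicle (SD, n = 4 each). The rise on the log2 scale was 1.17 (SE 0.06, limma adjusted p = 5.47e-06). A larger rise was seen for 214 genes.

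**Figure D1:**
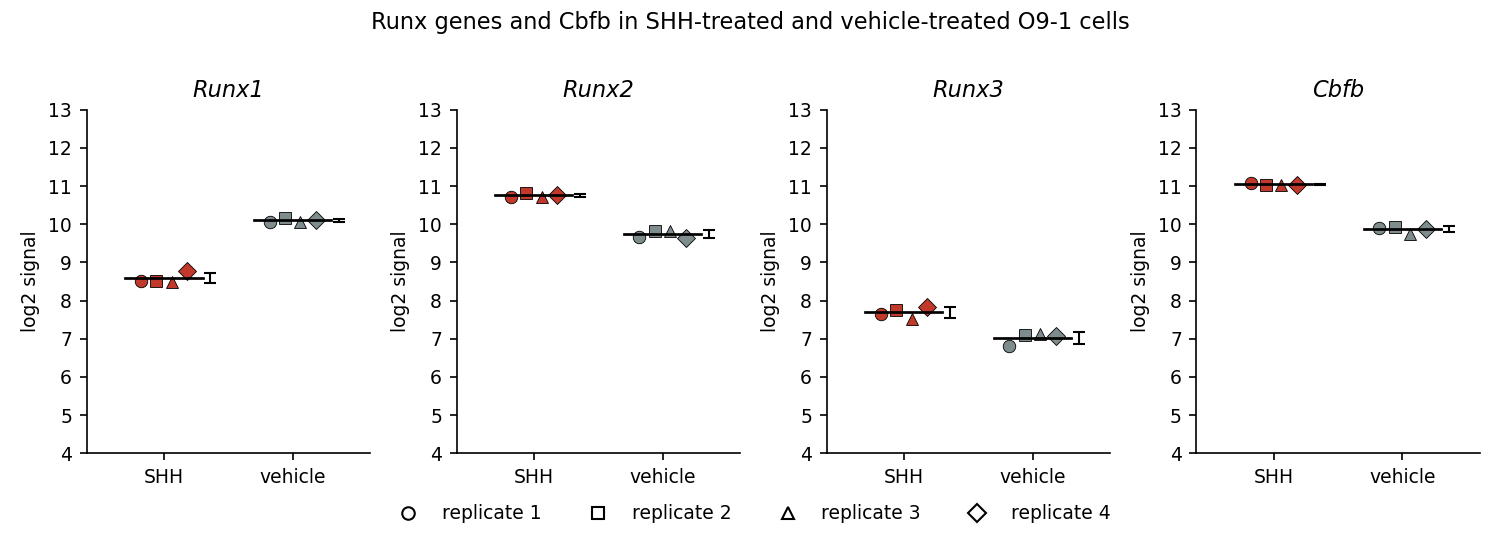
Log2 signal of *Runx1*, *Runx2*, *Runx3* and *Cbfb* in each culture, SHH on the left and vehicle on the right of each panel, with a line at the mean and a bar of ± 1 SD (n = 4 each). The 4 SHH-treated cultures lie below the vehicle-treated ones for *Runx1*, at 8.50 to 8.78 against 10.06 to 10.16, and above them for the other 3 genes.

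**Figure D2:**
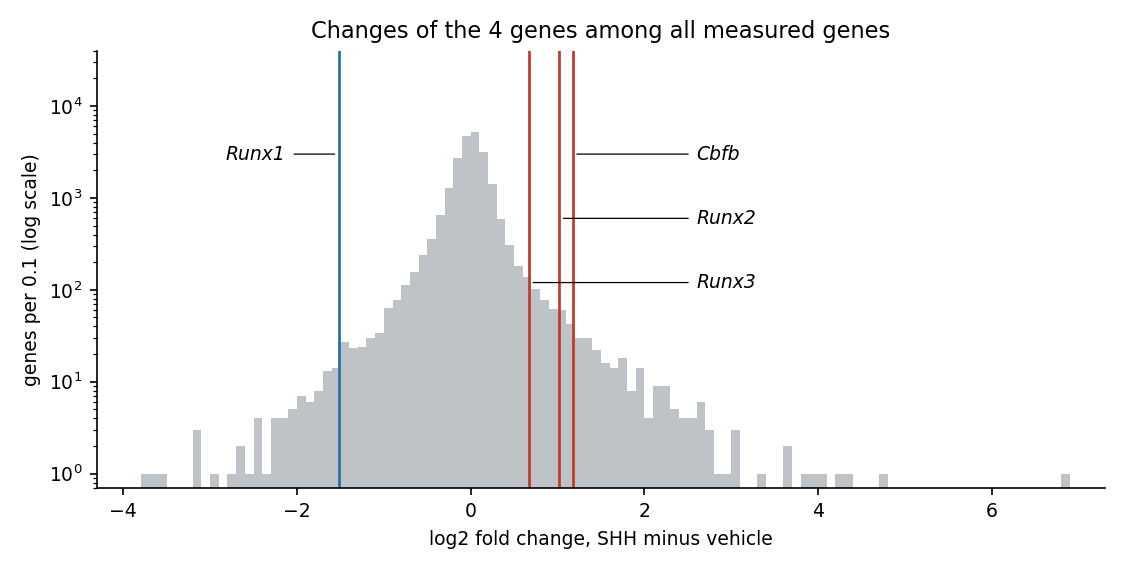
Number of genes (log scale) by log2 fold change, SHH minus vehicle, in steps of 0.1 over 22181 genes, with a line at each of the 4 genes. *Runx1* lies in the lower tail at -1.52, and *Runx3*, *Runx2* and *Cbfb* lie in the upper tail at 0.67, 1.02 and 1.17.

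The array signals of the 4 genes did not all change by the same amount. The log2 signal of a gene cannot be set against that of another gene, since their probes differ, but the difference between the signals of a pair of genes can be followed across arrays. The 6 pairs were tested by exact permutation of the cultures (two-sided, 4 against 4, where 0.0286 is the smallest p that can be reached), with Benjamini-Hochberg adjustment over the 6 pairs. *Runx1* and *Runx2* moved apart (the change of *Runx1* minus that of *Runx2* was -2.54 on the log2 scale, SE 0.08, exact p = 0.0286, adjusted p = 0.0343). In SHH-treated cultures the *Runx1* signal minus the *Runx2* signal was -2.29 to -1.99, and in vehicle-treated cultures it was 0.24 to 0.49, so the sign of this probe difference turned. The difference of changes was -2.19 (SE 0.08) for *Runx1* minus *Runx3* and -2.69 (SE 0.08) for *Runx1* minus *Cbfb*, each with an exact p of 0.0286 and an adjusted p of 0.0343. Without overlap between treatments, *Runx1* fell and the other 3 genes rose. The smallest p was therefore bound to be reached for these *Runx1* pairs, and it adds no evidence. These p-values also enter the adjustment over the 6 pairs.

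Among the 3 genes that rose, the array signal of *Runx3* rose less than that of the others. Whether the probes of these genes register an equal change in RNA equally was not tested. The *Runx2* signal minus the *Runx3* signal was 2.93 to 3.19 in SHH-treated cultures and 2.56 to 2.86 in vehicle-treated cultures, a difference of changes of 0.35 (SE 0.08, exact p = 0.0286, adjusted p = 0.0343). The *Runx3* signal minus the *Cbfb* signal was -3.51 to -3.19 with SHH and -3.11 to -2.64 with vehicle, a difference of changes of -0.50 (SE 0.12, exact p = 0.0286, adjusted p = 0.0343). For *Runx2* minus *Cbfb* the treatments overlapped, at -0.35 to -0.21 with SHH and -0.25 to 0.06 with vehicle. That difference of changes was -0.15 (SE 0.08) and did not pass the test (exact p = 0.114, adjusted p = 0.114), which does not show that both genes rose alike.

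**Figure D3:**
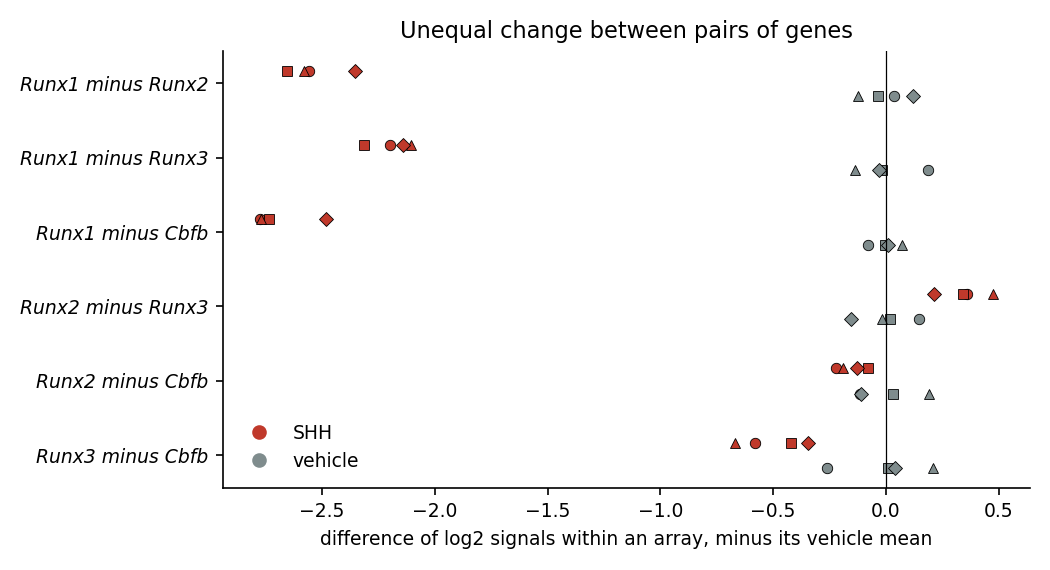
Difference between the log2 signals of 2 genes within each array, minus its mean over the vehicle-treated arrays, for the 6 pairs, with SHH above vehicle in each row. The SHH-treated arrays lie apart from the vehicle-treated ones in 5 pairs and overlap them for *Runx2* minus *Cbfb*.

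The genes whose profile was most like that of each gene were found by the root mean square distance of log2 signals over the 8 arrays, each gene centred on its own mean, among 11639 genes above the highest array median. The measure takes in both the change with SHH and the scatter among cultures. Closest to *Runx1* were *Srgap3*, a GTPase-activating protein (distance 0.0747, log2 fold change -1.47), *Bmp4*, a bone morphogenetic protein (0.0768, -1.50), and *Abi3bp*, a matrix protein (0.0815, -1.63). Closest to *Runx2* were *Timp3*, an inhibitor of metalloproteinases (0.0433, 1.04), *Ralgps2*, an activator of Ral GTPases (0.0620, 1.07), and *Eya1*, a transcriptional coactivator with phosphatase activity (0.0694, 1.13). Closest to *Runx3* were *Ksr1*, a scaffold of the Raf and MEK kinases (0.0749, 0.77), *Scara5*, a ferritin receptor (0.0811, 0.67), and *Cab39l*, a partner of the kinase Lkb1 (0.0813, 0.65). Closest to *Cbfb* were *Slc7a5*, an amino acid transporter (0.0471, 1.15), *Lrrn1*, a leucine-rich repeat membrane protein (0.0519, 1.14), and *Ect2*, an exchange factor of cytokinesis (0.0536, 1.14). The distances of the nearest genes were smaller for *Runx2* and *Cbfb* than for *Runx1* and *Runx3*. *Srgap3*, *Bmp4* and *Abi3bp* were each highest in replicate 4 among the SHH-treated cultures, as *Runx1* was, a likeness that the measure itself selects for.

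The treatment and the identity of the cells were checked on other genes. *Gli1*, a direct target of hedgehog signaling, averaged 10.04 ± 0.11 in SHH-treated cultures and 5.33 ± 0.21 in vehicle-treated cultures (SD, n = 4 each), and *Gapdh*, a glycolytic enzyme used as a control, differed by -0.04 on the log2 scale (limma adjusted p = 0.722). All 11 measured markers of neural crest mesenchyme lay above the highest array median in both treatments, although *Sox10* was close to it, with means of 5.89 with SHH and 5.76 with vehicle. Of these markers 6 were called (54.5%, against 9.99% of all genes), 2 higher and 4 lower. Among them was *Snai2*, a factor of epithelial-mesenchymal transition, at 9.29 ± 0.07 with SHH and 10.81 ± 0.07 with vehicle. Leukocyte markers, which matter here because *Runx1* and *Runx3* are best known from blood cells, had 0 of 6 called by limma, by limma with trend and robust settings and by the methods' test, and 0 at an unadjusted p under 0.05. Their mean signal per array was 5.50 to 5.65 with SHH and 5.38 to 5.54 with vehicle, and *Ptprc*, the pan-leukocyte marker, averaged 4.20 with SHH and 4.04 with vehicle. *Cd68* averaged 6.60 with SHH and 6.69 with vehicle, and *Fcer1g* 5.93 and 5.87, above the highest array median. Endothelial markers had 1 of 6 called (*Cdh5*, log2 fold change 0.67) and a mean signal of 5.15 to 5.33 with SHH and 5.09 to 5.16 with vehicle. *Pecam1* averaged 5.87 with SHH and 5.78 with vehicle, above the highest array median. *Cdh5* averaged 6.08 with SHH and 5.40 with vehicle, above that median with SHH alone. Epithelial markers had 1 of 6 called, *Cdh1*, which encodes E-cadherin and averaged 8.12 ± 0.12 with SHH and 6.35 ± 0.23 with vehicle. The called share was 0% for the leukocyte markers and 16.7% for the endothelial and for the epithelial markers, against 9.99% of all genes. Nothing can be read from counts of 0 or 1 called among 6 genes. The mean signal of the 6 epithelial markers was 5.72 to 5.83 with SHH and 5.35 to 5.55 with vehicle, and *Epcam*, another of these markers, averaged 4.58 with SHH and 4.46 with vehicle. *Krt8* averaged 6.56 with SHH and 6.42 with vehicle and, like *Cdh1*, lay above the highest array median. The part of these markers in the changes of the Runx genes and *Cbfb* was not tested. SHH replicate 3 stood apart from the other SHH-treated arrays on the second principal component (score 41.8, against -17.4 to -4.7), and without it the log2 fold changes were -1.49 for *Runx1*, 1.03 for *Runx2*, 0.73 for *Runx3* and 1.18 for *Cbfb*, all still called.

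Corepressors that Runx proteins recruit to switch genes off had 5 of 13 measured genes called, 4 higher and 1 lower in SHH-treated cells, with a median log2 fold change of 0.17 against 0.01 over all genes. The called share was 38.5%, against 9.99% of all genes, dim ones included, while all 13 corepressors lay above the highest array median. The Groucho-related genes *Tle1*, *Tle3* and *Tle4*, whose products bind the last residues of Runx proteins, were among those that rose. *Tle1* averaged 6.63 ± 0.08 in SHH-treated and 6.03 ± 0.09 in vehicle-treated cultures (SD, n = 4 each), with a log2 fold change of 0.60 (SE 0.07, limma adjusted p = 5.99e-04). The log2 fold change was 0.45 for *Tle3* and 0.35 for *Tle4*, which was called too, and *Tle2* differed by -0.37 without passing the test (limma adjusted p = 0.0135). *Cbfa2t3* and *Runx1t1*, members of the ETO family that is known from leukaemia fusions with *RUNX1*, went opposite ways, with log2 fold changes of 0.50 and -0.31. These calls were close to the threshold. Leaving out any 1 of the 8 arrays left 1 to 3 corepressors called, the lowest count without vehicle replicate 2. *Runx1t1* lost its call in each of those 8 fits (limma adjusted p of 0.0127 to 0.0295), *Cbfa2t3* in 7, *Tle3* in 4 and *Tle4* in 1, and *Tle1* kept it in all.

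Coactivators and modifying enzymes had 3 of 12 measured genes called, 2 higher and 1 lower, with a median log2 fold change of 0.01. The called share was 25%, against 9.99% of all genes, dim ones included, while all 12 lay above the highest array median. The genes that rose were *Cdk6*, a G1 kinase that binds *Runx1* protein, and *Ccnd1*, cyclin D1. Both are cell-cycle genes, and their rise is not a rise of coactivators. *Cdk6* was at 8.36 ± 0.04 with SHH and 7.58 ± 0.14 with vehicle (log2 fold change 0.78, limma adjusted p = 2.83e-04). *Ccnd1* was at 10.35 ± 0.04 with SHH and 9.76 ± 0.04 with vehicle (0.58, limma adjusted p = 1.68e-04). *Pim1*, a kinase of Runx proteins, fell by 0.44 on the log2 scale (limma adjusted p = 0.00601), and lost its call when any 1 of 7 arrays was left out (limma adjusted p of 0.0144 to 0.0212). The acetyltransferase genes *Ep300* and *Crebbp* differed by -0.06 and -0.23 and did not pass the test (limma adjusted p = 0.565 and 0.039). The acetyltransferase genes *Kat6a* and *Kat6b* differed by 0.06 and 0.03 and did not pass it either (limma adjusted p = 0.570 and 0.811).

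Partners and antagonists of *Runx2* in the skeleton had 8 of 25 measured genes called, 3 higher and 5 lower, with a median log2 fold change of -0.06. The called share was 32%, against 9.99% of all genes, dim ones included, while 21 of the 25 lay above the highest array median in each treatment. The rises were larger than the falls. *Hey1*, a Notch effector that represses *Runx2* protein activity, had log2 signals of 10.06, 10.16, 10.15 and 9.30 in SHH-treated cultures and of 5.85, 5.70, 6.24 and 5.86 in vehicle-treated cultures, with a log2 fold change of 4.01 (SE 0.21, limma adjusted p = 6.78e-06). *Dlx5*, a homeobox gene that activates *Runx2* in osteoblasts, averaged 9.72 ± 0.16 with SHH and 6.37 ± 0.11 with vehicle, a log2 fold change of 3.34 (SE 0.09, limma adjusted p = 3.50e-07). *Ets1*, whose product binds DNA together with *Runx1* protein, rose by 1.07 (SE 0.07, limma adjusted p = 3.66e-05).

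The 5 genes that fell were *Gli3*, the hedgehog-pathway repressor (-0.68), *Cebpb* (-0.58) and *Atf4* (-0.49), which act with *Runx2* protein on osteoblast genes, *Zfp521*, an antagonist of it (-0.43), and *Wwtr1*, which encodes the coactivator TAZ (-0.32). *Wwtr1* lost its call without any 1 of the 8 arrays (limma adjusted p of 0.0125 to 0.0184), and *Cebpb* lost it without SHH replicate 2, vehicle replicate 2 or vehicle replicate 4 (0.0103 to 0.0113). *Yap1*, a relative of TAZ, *Twist1*, an inhibitor of *Runx2* protein in the early skull, and *Sox9*, the cartilage factor that opposes it, differed by -0.07, -0.07 and 0.09 and did not pass the test (limma adjusted p = 0.509, 0.556 and 0.365).

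**Figure D4:**
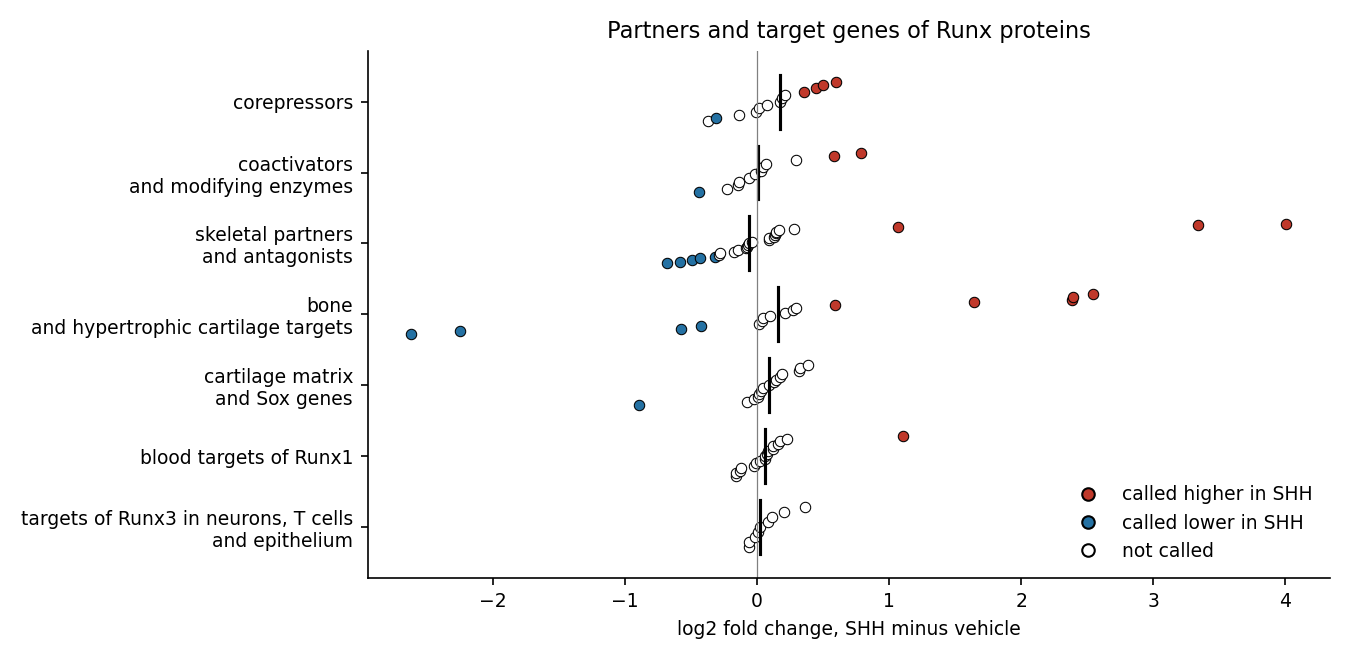
Log2 fold change, SHH minus vehicle, of each measured gene in 7 lists of partners and targets of Runx proteins, with a bar at the median of the list. Called genes lie on both sides of 0 in the first 4 lists, and the last 3 lists hold 1, 1 and 0 called genes.

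Bone and hypertrophic cartilage genes that *Runx2* is known to act on had 9 of 16 measured genes called, 5 higher and 4 lower, with a median log2 fold change of 0.16, so the list did not move one way. The called share was 56.25%, against 9.99% of all genes, dim ones included, while 11 of the 16 lay above the highest array median with SHH and 9 with vehicle. This list and those above were written with earlier results of these data known, so such shares are descriptions and no test. *Sp7*, the osteoblast factor that acts after *Runx2*, had log2 signals of 7.20, 6.94, 7.06 and 7.11 in SHH-treated cultures and of 5.21, 5.42, 5.16 and 5.94 in vehicle-treated cultures. The treatments of *Sp7* did not overlap, although vehicle replicate 4 was nearer to the SHH-treated cultures than the other 3, and the log2 fold change was 1.64 (SE 0.17, limma adjusted p = 3.02e-04). *Alpl*, the alkaline phosphatase needed for mineral, averaged 8.70 ± 0.08 with SHH and 6.31 ± 0.06 with vehicle (log2 fold change 2.39, limma adjusted p = 3.47e-07). *Ibsp*, bone sialoprotein, averaged 7.49 ± 0.15 with SHH and 4.95 ± 0.22 with vehicle (2.54, limma adjusted p = 5.04e-06). *Col10a1*, the collagen of hypertrophic cartilage, averaged 9.77 ± 0.04 with SHH and 7.38 ± 0.10 with vehicle (2.39, limma adjusted p = 3.50e-07). *Dmp1*, a matrix protein of osteocytes, had a log2 fold change of 0.59 between means of 5.55 with SHH and 4.96 with vehicle, both under the highest array median, and lost its call without any 1 of the 8 arrays (limma adjusted p of 0.0116 to 0.0306). The vehicle means of *Sp7* and *Ibsp* were also under that median, and where such a signal is background their rise is a lower bound.

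The bone genes that fell code for a secreted receptor, a protease and the chains of a collagen. *Tnfrsf11b*, which encodes osteoprotegerin, the decoy receptor that holds back bone resorption, averaged 7.18 ± 0.10 with SHH and 9.80 ± 0.03 with vehicle (log2 fold change -2.62, limma adjusted p = 2.08e-07). *Mmp13*, the collagenase of hypertrophic cartilage, averaged 6.55 ± 0.14 with SHH and 8.80 ± 0.18 with vehicle (-2.25, limma adjusted p = 4.78e-06). *Col1a1* and *Col1a2*, the chains of type I collagen, had log2 fold changes of -0.57 and -0.42. *Bglap*, osteocalcin, the late osteoblast gene, averaged 5.65 ± 0.39 with SHH and 5.61 ± 0.15 with vehicle, at the level of the array medians, and did not pass the test (limma adjusted p = 0.927).

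**Figure D5:**
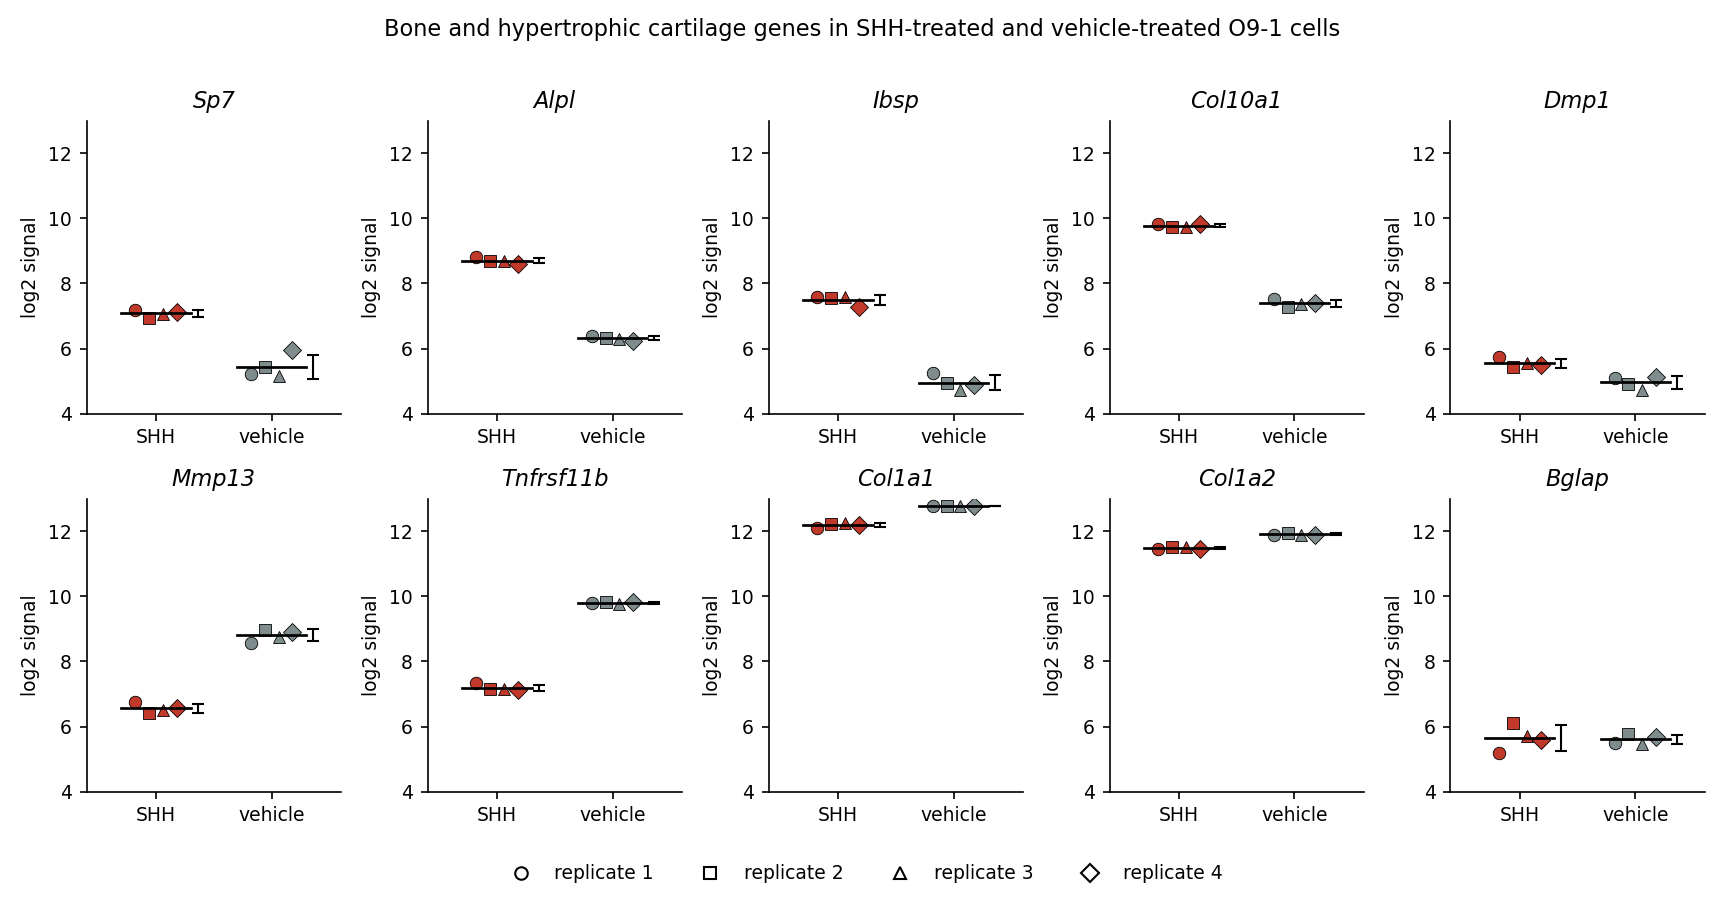
Log2 signal of 10 bone and hypertrophic cartilage genes in each culture, SHH on the left and vehicle on the right of each panel, with a line at the mean and a bar of ± 1 SD (n = 4 each). The treatments separate upward for *Sp7*, *Alpl*, *Ibsp*, *Col10a1* and *Dmp1*, downward for *Mmp13*, *Tnfrsf11b*, *Col1a1* and *Col1a2*, and overlap for *Bglap*.

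Promoter windows were given for 12 of the 16 bone and hypertrophic cartilage genes, 15 windows in all. The letters TGTGGT or their reverse were in 3 of the 15 windows (20.0%), a share near the 16.76% of all windows. The windows with a match belonged to 1 of the 4 genes with a window that rose (*Dmp1*), 1 of the 2 that fell (*Mmp13*) and 1 of the 6 that were not called (*Bglap*), and the Gli letters were in 0. As those letters are rare in all windows, 0 was likely here too. The stretches below, 30 bases long with the match in capitals, show these genes beside the Runx promoters above: *Dmp1* at chr5:104202441-104202470 (plus strand, bases -176 to -147 relative to the start), *Mmp13* at chr9:7272384-7272413 (plus strand, bases -130 to -101) and *Bglap* at chr3:88384581-88384610 (minus strand, bases -144 to -115).
Dmp1: agtcatttgagaACCACAagagctttttag
Mmp13: attctgccacaaACCACActtaggaagaaa
Bglap: ccgcaatcacctACCACAgcatcctttggg
Each holds a single match in place of the pair found in the Runx promoters. With 3 such windows, nothing can be read from the direction in which their genes changed.

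Cartilage matrix and Sox genes had 1 of 15 measured genes called, *Col11a1*, a fibrillar collagen of cartilage, at 8.77 ± 0.06 with SHH and 9.66 ± 0.05 with vehicle (log2 fold change -0.90, limma adjusted p = 2.14e-05). Known targets of *Runx1* in blood had 1 of 17 called. That gene was *Cebpa*, a factor of granulocytes and of fat cells, at 5.89 ± 0.11 with SHH and 4.79 ± 0.18 with vehicle (1.11, limma adjusted p = 1.68e-04), where the vehicle mean is under the highest array median. *Spi1*, the blood factor PU.1, averaged 5.71 with SHH and 5.65 with vehicle and did not pass the test (limma adjusted p = 0.798). Targets of *Runx3* in neurons, T cells and epithelium had 0 of 9 called by limma, by limma with trend and robust settings and by the methods' test, and 1 at an unadjusted p under 0.05. The called shares of these 3 lists were 6.67%, 5.88% and 0%, against 9.99% of all genes. The median log2 fold changes of these 3 lists were 0.09, 0.06 and 0.02, against 0.01 over all genes, and many of their genes are dim in these cells, with 6, 5 and 4 genes above the highest array median in vehicle-treated cultures.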

How the data were processed

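The authors hybridised RNA to Affymetrix Mouse Gene 2.0 ST arrays, read the intensities with GCOS, made signal files in Expression Console and tested them in Transcriptome Analysis Console 2.0. The deposited values are log2 signals that the authors had normalized between the 8 arrays (array medians of 5.70 to 5.76), and neither the algorithm nor a genome build is given in the sources used here. Precision is limited by the number of arrays.

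limma 3.58.1 (R 4.3.3) was fitted to all 41345 transcript clusters (moderated test, default settings, SHH minus vehicle, no filter and no block), and the fit was tested on simulated data. Of the clusters 23522 had 1 gene symbol, 1820 several and 16003 none. The cluster with the highest mean stands for a gene. Some genes of the lists were not analysed here, and the number measured is given beside each list. Of 19 bone and hypertrophic cartilage genes listed, 16 were measured. *Spp1*, osteopontin, was among the genes to be named whatever their values, but no cluster carried its symbol alone, so it was not analysed.

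The members and lists were chosen with earlier results of these data known. Named were all members, up to 4 called genes of each list with the largest change, a set of genes fixed by name, *Gli1*, *Ptch1* and *Gapdh* as checks, and the 3 nearest profiles of each member. Other list genes and markers were named after their values were seen. Alternatives were the methods' test (one-way analysis of each cluster, equal variance), limma with array weights or with its trend and robust options, quantile normalization, median centring, filters on dim or ambiguous clusters, a replicate block and leaving out each culture. Figures were drawn with matplotlib 3.10.9.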

Additional observations from a re-analysis of the deposited data

Results flagged for a closer look

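Among the 60 genes named, 8 of 120 sets of 4 cultures held a culture that stood apart from the other 3, by Dixon's test at the 95% level (a gap of 0.847 to 0.96 of the range), and chance gives about 1 in 20. For *Runx1*, SHH replicate 4 was at 8.78, where the other SHH-treated cultures were at 8.50 to 8.52, and without it the log2 fold change was -1.58. For *Runx3*, vehicle replicate 1 was at 6.80, where the other vehicle-treated cultures were at 7.07 to 7.12. SHH replicate 4 also stood apart for *Hey1* (9.30, others 10.06 to 10.16), *Ibsp* (7.26, others 7.55 to 7.58) and *Ksr1* (7.79, others 7.59 to 7.62), while its values of the hedgehog targets *Gli1* and *Ptch1*, 10.12 and 12.87, lay within those of the other SHH-treated cultures. The remaining sets were vehicle-treated: *Tle3* in replicate 3 (10.62, others 10.44 to 10.45), *Cebpa* in replicate 4 (5.06, others 4.69 to 4.71) and *Col1a2* in replicate 2 (11.94, others 11.89).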

How the results depend on the processing

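Over 16 alternatives the log2 fold change was -1.58 to -1.49 for *Runx1*, 0.98 to 1.05 for *Runx2*, 0.60 to 0.73 for *Runx3* and 1.14 to 1.20 for *Cbfb*, and only *Runx3* lost its call, without SHH replicate 2 (0.65) and with the replicate block (0.67, limma adjusted p = 0.0152). The cluster filters, the trend and robust options, the methods' test and the replicate block cannot move a fold change here. They can move only its p-value. Leaving out 1 culture gave 0.60 to 0.73 for *Runx3* and 1 to 3 called corepressors. The replicate block moved the called clusters to 1240, the called corepressors to 1 and the called skeletal partners to 4. The replicate numbers are not known to pair the cultures: same-numbered arrays had correlations of their deviations of -0.0218 to 0.0195, and 1 of 4 SHH-treated arrays correlated best with its own number. An adjusted p under 0.05 gave 4694 called clusters, and requiring a change of at least 1.5-fold gave 1574. With clusters above the highest array median alone, 0 blood targets of *Runx1* were called, since the cluster of *Cebpa* was not among those tested. Without SHH replicate 2 or vehicle replicate 3 *Bglap* differed by -0.11 or -0.002135 (up to 0.20 without SHH replicate 1), and without vehicle replicate 1 *Spi1* differed by -0.0187 (up to 0.12 without SHH replicate 3). Of 49 called genes named beside the members, 34 kept the call in every alternative run. Quantile normalization and median centring moved the median of all clusters by under 0.1 on the log2 scale. No pair of members changed direction when a culture was left out, but 4 against 3 cultures leave those values with no test. Each member has 1 cluster, so the alternative of another cluster could not be run. The causes were not tested.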
